A study of Mus musculus with 10 samples.

Results

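Fibroblast growth factor (FGF) signals reach the nucleus through the kinases RAF, MEK and ERK, and the genes that ERK switches on include brakes on its own pathway. *Dusp6*, *Dusp4*, *Spry2*, *Spry4*, *Spred1*, *Etv4*, *Etv5*, *Egr1*, *Fos* and *Fgf4* were examined here as a ligand, the feedback inhibitors, the transcription factors and the immediate early genes of this response. They were chosen by name, and every probe set whose annotation gave only one of these symbols was used, which gave 27 probe sets for 10 genes out of 45037 probe sets and 18193 genes with such a probe set. Mouse embryonic stem cells (ESCs) make FGF4 themselves, and ERK activity prepares them to leave pluripotency. The 2i medium blocks MEK and the kinase GSK3β and so holds ESCs in a naive state.

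The cells were male 129SV *Max*-null ESCs, a line in which both endogenous *Max* alleles are disrupted and MAX comes from a tetracycline-off construct that doxycycline (Dox) shuts down. All 10 arrays, the untreated ones included, carried this genotype, and no cells with an intact *Max* gene were used here. In medium with 2 inhibitors and leukaemia inhibitory factor (2i+LIF), 1 array came from cells given 2i and Dox for 6 d and 1 from untreated cells given 2i for 6 d. In medium with LIF and serum (LIF+serum), 1 array each came from cells after 1, 2, 3 and 4 d of Dox with their own untreated array (the first set), and after 6 and 8 d of Dox with a second untreated array (the second set). Values are log2 intensities after robust multi-array analysis (RMA). Whether the 2 untreated LIF+serum arrays stand for separate cultures is not given, so p-values cover the spread of these arrays alone and part of it may be technical.

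The arrays had medians of 5.14 and 5.16 (log2) in 2i+LIF and 5.26 to 5.33 in LIF+serum. The 3′ probe set of beta-actin exceeded the 5′ one, a measure of RNA shortening, by 0.76 and 0.78 in 2i+LIF, by 0.41 to 0.56 in the first LIF+serum set and by 0.88 to 1.46 in the second. The probe set of *Max* itself ranged between 5.07 and 6.20 over the 10 arrays with no called slope over days of Dox (adjusted p = 0.785 from limma), so it does not check the labels, and whether it reads the construct was not tested. The 8 pluripotent cell markers averaged 11.98 to 12.17 in 2i+LIF, 11.67 to 12.23 with Dox in LIF+serum and 11.52 to 11.66 in untreated LIF+serum. Fibroblast feeder markers averaged 4.22 to 4.24, 4.62 to 5.50 and 4.58 to 5.0 in the same groups, primitive endoderm markers 5.26 to 5.47, 5.15 to 6.10 and 5.37 to 5.42, trophoblast markers 5.05 to 5.11, 5.08 to 5.86 and 5.18 to 5.21, and mesendoderm markers 4.20 to 4.27, 4.22 to 4.65 and 4.34 to 4.67. The highest fibroblast, primitive endoderm and trophoblast averages were those of the 8 d array. Of the 8 pluripotent cell markers 2 were called higher with days of Dox, *Klf4* and *Nanog*, and 1 lower, *Utf1* (limma). Over all genes 5.75% were called higher and 5.33% lower. In untreated 2i+LIF *Utf1* was 3.27-fold lower than in untreated LIF+serum without passing the test. In these bulk cultures fewer cells of a type and less RNA per cell cannot be told apart.

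RefSeq promoter sequences (assembly GRCm38.p6, 250 bases before to 50 after the start) were at hand for 6 of the 10 genes, in 7 windows. They were searched on both strands for the CArG box of serum response factor, the ETS core CCGGAA, the AP-1 site TGANTCA, the cAMP response element TGACGTCA and the E-box CACGTG, none of which overlaps another. Of all 32851 promoter windows, 1.63%, 14.9%, 7.81%, 1.79% and 7.15% hold these motifs. Among the 7 windows there was 1 match, a CCGGAA in *Spry2*. Bases more than 250 before a start were not searched, nor were genes without a window, *Egr1* among them. Shown for *Fos*, because it was the only one of the 10 genes that rose with days of Dox, are the 250 bases before its start at chr12:85473640-85473889 (plus strand), with TGACGT and TATAAA in capitals. Shown for *Spry2* are the 30 bases around its ETS core, downstream of the start at chr14:105896770-105896799 (minus strand), with CCGGAA in capitals.
Fos: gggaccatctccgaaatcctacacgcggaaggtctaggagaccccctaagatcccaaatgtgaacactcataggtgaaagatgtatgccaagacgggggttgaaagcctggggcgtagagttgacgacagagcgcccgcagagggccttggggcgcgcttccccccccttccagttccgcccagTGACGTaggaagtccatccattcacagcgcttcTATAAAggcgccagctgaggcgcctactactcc
Spry2: gaggtcatctatcCCGGAAtccgggagggt
TGACGT, the left part of a cAMP response element, began 66 bases before the *Fos* start and TATAAA began 33 bases before it. Both were searched for after the values were seen, and 7.51% and 13.6% of all promoter windows hold them. A match is a stretch of letters and was not tested as a site.

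The first comparison asked how the genes stand in untreated cells in 2i+LIF, where MEK and GSK3β are blocked, against untreated cells in LIF+serum. The part of either inhibitor alone was not tested. *Spry4* and *Egr1* were 12.9-fold and 10.8-fold lower in 2i+LIF, *Dusp4*, *Etv4*, *Dusp6* and *Spred1* were between 4.13-fold and 2.27-fold lower, and *Spry2*, *Fgf4*, *Etv5* and *Fos* were 1.06-fold to 1.23-fold higher. *Spry4* alone passed the test across all probe sets. The 6 low genes were also below every one of the 8 LIF+serum arrays in untreated 2i+LIF, as 24.5% of all 18193 genes were. The share of all genes with both 2i+LIF arrays below, or above, all LIF+serum arrays was not counted. The median log2 difference was -1.22 over the 10 genes and -0.11 over all genes.

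**Figure D1:**
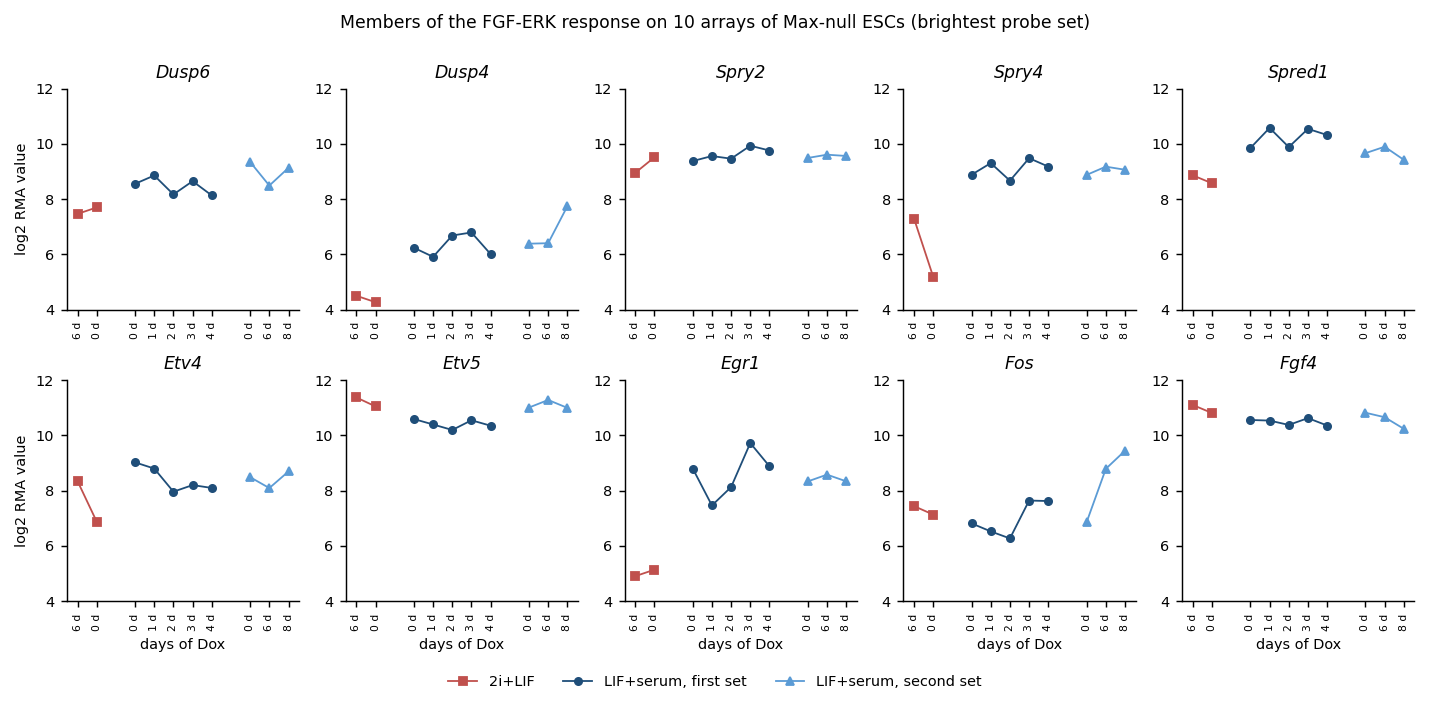
Log2 RMA values (vertical axes) of the brightest probe set of each gene on the 10 arrays, 1 array per point, with days of Dox on the horizontal axes and lines joining the arrays of 1 set (squares, 2i+LIF; circles, first LIF+serum set; triangles, second LIF+serum set). Both 2i+LIF arrays of *Egr1* lie at 5.14 or below, under all LIF+serum arrays (7.47 or above), while *Fos* reaches its highest value, 9.45, after 8 d of Dox in LIF+serum.

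Among the inhibitors, *Spry4* encodes a Sprouty protein that damps receptor tyrosine kinase signals upstream of ERK. Its brightest probe set, 1445669_at, read 7.29 with Dox and 5.19 without in 2i+LIF. In LIF+serum it read 8.88 untreated, 9.30, 8.67, 9.48 and 9.18 after 1, 2, 3 and 4 d of Dox, and 8.88 untreated, 9.17 and 9.06 after 6 and 8 d in the second set. On this probe set the untreated 2i+LIF value was the lowest, the Dox value in 2i+LIF stood between it and all LIF+serum arrays, and the LIF+serum arrays lay close together. The difference between the untreated media was -3.69 (log2, standard error 0.40, adjusted p = 0.0381 from limma), the 12th lowest of 18193 genes. Its other 3 probe sets differed by -2.54 to -2.33, and all 4 were below every LIF+serum array.

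That call was lost when the arrays were normalized by quantiles once more (adjusted p = 0.139 from limma), centred on their medians (0.133) or restricted to probe sets that reached 6 (0.0958), with differences of -3.57, -3.54 and -3.69. Over all alternatives its adjusted p ran from 0.000249 to 0.139 (limma). Over all probe sets 0.0910% were called higher and 0.0377% lower, and over genes by their brightest probe set 0.121% and 0.0660%. Of the 10 genes 0 were called higher (limma, 0 at an unadjusted p under 0.05) and 1 lower (6 at an unadjusted p under 0.05). The lone 2i+LIF array is assumed to vary like the LIF+serum ones, and medium and array set cannot be told apart.

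*Dusp4* and *Dusp6* encode phosphatases that remove the activating phosphates from ERK, in the nucleus and the cytoplasm. *Dusp4* read 4.50 with Dox and 4.27 without in 2i+LIF, against 5.91 to 7.74 with Dox and 6.24 and 6.39 untreated in LIF+serum. The 2 media did not overlap, and the share of all genes without overlap was not counted. The untreated difference was -2.04 (standard error 0.41, adjusted p = 0.158 from limma). For *Dusp6* the 2i+LIF arrays read 7.46 with Dox and 7.70 without, against 8.13 to 8.85 at 1 to 4 d and 8.49 and 9.13 at 6 and 8 d of Dox and 8.55 and 9.34 untreated in LIF+serum. Here too the media did not overlap, although the untreated LIF+serum arrays differed by 0.79 between themselves, the widest such gap among the brightest probe sets of the 10 genes. The difference was -1.25 (standard error 0.48, adjusted p = 0.445).

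*Spred1*, whose product keeps RAS from activating RAF, had 8 probe sets. The brightest read 8.86 with Dox and 8.57 without in 2i+LIF, against 9.42 to 10.58 with Dox and 9.85 and 9.66 untreated in LIF+serum. All 8 were lower in untreated 2i+LIF than the mean of the untreated LIF+serum arrays, with differences of -1.18 to -0.40, and 6 were below every LIF+serum array. None passed the test (adjusted p = 0.402 for the brightest, from limma). *Spry2*, the other Sprouty gene, had 2 probe sets that disagreed. The brighter, 1436584_at, read 8.95 with Dox and 9.51 without in 2i+LIF, against 9.46 to 9.93 with Dox and 9.38 and 9.49 untreated in LIF+serum, a difference of 0.08 (95% interval -0.88 to 1.04). The dimmer, 1421656_at, differed by -1.01 and was below every LIF+serum array in untreated 2i+LIF.

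**Figure D2:**
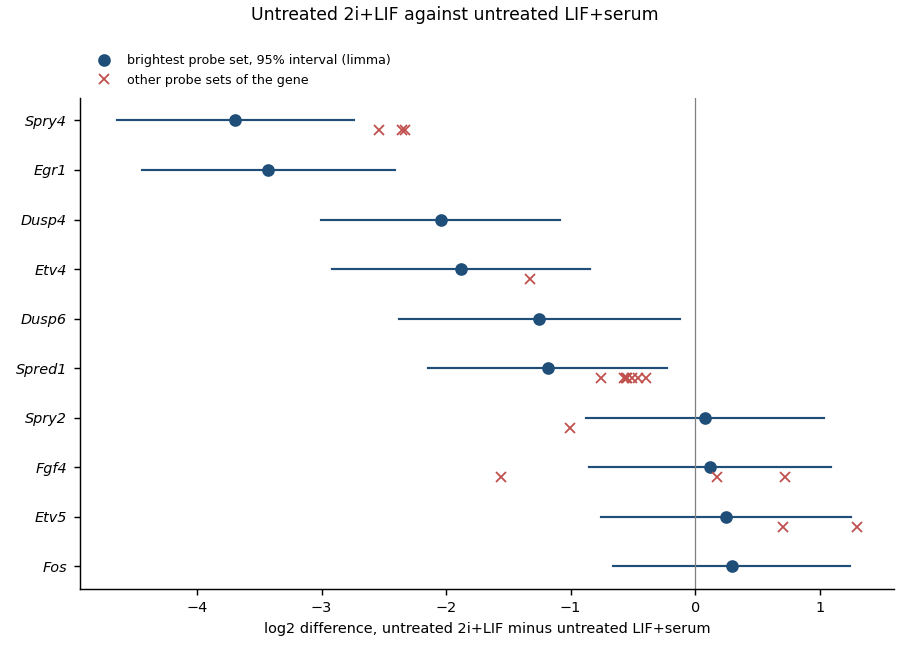
Log2 difference of untreated 2i+LIF minus the mean of 2 untreated LIF+serum arrays (horizontal axis) for the 10 genes (vertical axis), with circles and 95% intervals from limma for the brightest probe set and crosses for the others. The intervals of *Spry4*, *Egr1*, *Dusp4*, *Etv4*, *Dusp6* and *Spred1* lie below 0, those of the other 4 genes span 0, and the probe sets of *Fgf4* and *Spry2* lie on both sides of 0.

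Of the transcription factors, *Etv4* and *Etv5* encode ETS proteins of the PEA3 group, which FGF receptors induce in many tissues. *Etv4* read 8.35 with Dox and 6.88 without in 2i+LIF. In LIF+serum it read 9.03 untreated and 8.80, 7.96, 8.20 and 8.10 after 1 to 4 d of Dox, then 8.49 untreated, 8.10 and 8.70 after 6 and 8 d. On this probe set, the brightest, only the untreated 2i+LIF value lay outside the range of LIF+serum. The untreated difference was -1.88 (standard error 0.44, adjusted p = 0.226 from limma), and a second, dimmer probe set gave -1.32. On that dimmer one both 2i+LIF values lay below LIF+serum, at 4.17 with Dox and 3.65 without, against 4.37 or above. *Etv5* ran the other way on all 3 of its probe sets, 0.25, 0.70 and 1.30 higher in untreated 2i+LIF, and none passed. Its brightest probe set read 11.37 with Dox and 11.05 without in 2i+LIF, against 10.20 to 11.28 with Dox and 10.59 and 11.01 untreated in LIF+serum, so that the media overlapped on it. They did not overlap on 1450082_s_at, at 10.01 and 9.49 in 2i+LIF and 8.94 or below in LIF+serum. Nor did they on 1420998_at, at 9.92 and 9.40 in 2i+LIF and 8.87 or below in LIF+serum. How many of all probe sets do the same was not counted. On the dimmest one, 1420998_at, the untreated LIF+serum arrays differed more than on the brightest, 8.87 in the first set and 7.33 in the second.

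*Egr1*, an immediate early zinc finger factor, read 4.91 with Dox and 5.14 without in 2i+LIF on its single probe set. In LIF+serum it read 8.80 untreated and 7.47, 8.13, 9.73 and 8.88 after 1, 2, 3 and 4 d of Dox, then 8.34 untreated, 8.58 and 8.34 after 6 and 8 d. Both 2i+LIF values lay far under the lowest LIF+serum value, that at 1 d. The untreated difference was -3.43 (standard error 0.43, adjusted p = 0.0517 from limma), the 16th lowest of 18193 genes. It just missed the threshold and passed where eBayes used a trend and robust variances (adjusted p = 0.00844) where each gene's probe sets were averaged, so that fewer features were tested (0.0106), and where all 10 arrays shared the fit (0.0161), with 0.00844 to 0.170 over all alternatives. The fit of all 10 arrays also called *Spry4*, *Dusp4*, *Etv4*, *Dusp6* and *Spred1* lower. Of all 45037 probe sets it called 3259 lower and 2231 higher (limma). Its error came from the spread of the LIF+serum arrays around the slope within their sets. The spread between sets, from which medium cannot be told apart, does not enter it.

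*Fos* codes for the AP-1 subunit c-Fos and is, with *Egr1*, the textbook immediate early gene. It read 7.44 with Dox and 7.13 without in 2i+LIF, against 6.82 and 6.86 in the untreated LIF+serum arrays, a difference of 0.29 (95% interval -0.66 to 1.25). *Fgf4*, the ligand through which ESCs stimulate themselves, read 11.10 and 10.81 in 2i+LIF with and without Dox, against 10.24 to 10.66 with Dox and 10.56 and 10.82 untreated in LIF+serum. The untreated arrays overlapped between the media. Of its 4 probe sets 3 were 0.12 to 0.72 higher in untreated 2i+LIF, and the dimmest, 1449729_at, differed by -1.56.

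The second comparison asked how the genes moved with days of Dox in LIF+serum, as a slope per day with the array set as a term. *Fos* rose, with a log2 slope of 0.31 per day, and none of the other 9 genes passed the test in either direction (limma). At an unadjusted p under 0.05 the same count held, 1 higher and 0 lower. Over all genes 5.75% were called higher and 5.33% lower, and over all probe sets 4.77% and 4.17%, so a count of 1 in 10 is near the background. The median slope was 0.02 over the 10 genes and -0.01 over all genes.

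On the first set *Fos* read 6.82 untreated and 6.53, 6.27, 7.64 and 7.63 after 1, 2, 3 and 4 d of Dox. On the second set it read 6.86 untreated, 8.79 after 6 d and 9.45 after 8 d. The arrays at 3, 4, 6 and 8 d were above both untreated arrays and those at 1 and 2 d below both, so the groups overlapped. At 4 d *Fos* was 1.75-fold, at 6 d 3.80-fold and at 8 d 6.00-fold the untreated value of its set, and set against the untreated array of the first set the 8 d value was 6.20-fold. The slope had a standard error of 0.05 and an adjusted p of 0.00734 from limma.

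Within the sets the *Fos* slope was 0.27 in the first (adjusted p = 0.202 from limma) and 0.32 in the second (adjusted p = 0.00139). Leaving out the second untreated array, without which 6 and 8 d have no untreated array of their set, gave 0.28 (adjusted p = 0.294), and leaving out each of the others kept the call (adjusted p up to 0.0247). The beta-actin 3′ excess was 1.46 and 1.22 at 6 and 8 d, against 0.88 on the untreated array of that set, and its part in the result was not tested. Averages of the marker lists also differed between these arrays. Fibroblast feeder markers averaged 4.62 and 5.50 at 6 and 8 d, against 4.58 on that untreated array, primitive endoderm markers 5.56 and 6.10, against 5.37, and trophoblast markers 5.54 and 5.86, against 5.21. In each of these 3 lists 1 of 8 genes was called higher with days of Dox and 0 lower (limma), against 5.75% and 5.33% of all genes. They were the fibroblast marker *Acta2*, the trophoblast marker *Krt7* and the primitive endoderm marker *Pdgfra*. At 6 d they were 1.61-fold, 9.25-fold and 4.60-fold their untreated value, and at 8 d 16.8-fold, 5.75-fold and 6.05-fold. Other markers of these lists were below their untreated value at 8 d, such as *Lama1* (0.498-fold), *Sox7* (0.631-fold), *Postn* (0.721-fold) and *Elf5* (0.846-fold). The part of these cell types in the *Fos* slope was not tested.

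For the other genes the slopes were bounded rather than called. *Dusp4* had 0.11 per day (95% interval -0.02 to 0.24), *Spry4* 0.04 (-0.05 to 0.12), *Egr1* 0.06 (-0.12 to 0.25) and *Spry2* 0.03 (-0.03 to 0.10). That of *Spred1* was 0.01 (-0.09 to 0.11), and the interval of *Etv5* ran from -0.07 to 0.07. *Dusp6*, *Fgf4* and *Etv4* had -0.06 (-0.16 to 0.03), -0.06 (-0.12 to 0.01) and -0.05 (-0.17 to 0.06). The 4 *Fgf4* probe sets all had negative slopes, of -0.06 to -0.04. Those of *Spry4* disagreed, since its 2 dimmest probe sets, 1422021_at and 1422020_at, had slopes of -0.10 each (adjusted p = 0.102 and 0.186 from limma). Over the 27 probe sets 1 was called higher and 0 lower, and 1 and 3 had an unadjusted p under 0.05. *Egr1* varied most from array to array apart from *Fos*, over a range of 2.26 in LIF+serum, and it was lowest at 1 d and highest at 3 d.

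At single times, with 1 array each and no test, a gene was read from its brightest probe set. It was counted when it was at least 2-fold away from the untreated array of its set. None of the 10 genes was 2-fold higher at 1, 2, 3 or 4 d, against 3.00%, 4.28%, 6.13% and 7.72% of all genes. *Fos* was at 6 d (background 5.94%), and at 8 d both *Fos* and *Dusp4* were, *Dusp4* at 2.56-fold (background 6.38%). *Egr1* was 2.52-fold lower at 1 d (background 0.566%) and *Etv4* 2.09-fold lower at 2 d (background 1.36%). None was 2-fold lower at 3, 4, 6 or 8 d, against 3.06%, 3.92%, 5.35% and 5.65% of all genes. Dimmer probe sets of *Spred1* passed 2-fold early. At 1 d 1423162_s_at, 1452911_at, 1460116_s_at and 1428777_at were 2.88-fold, 2.61-fold, 2.40-fold and 2.12-fold, and its others 1.06-fold to 1.66-fold. At 3 d 1423162_s_at, 1452911_at and 1460116_s_at were 2.05-fold, 2.55-fold and 2.26-fold, and its others 1.01-fold to 1.79-fold. The untreated array of the second set was 2.37-fold that of the first on 1460116_s_at and 1.66-fold on 1452911_at. On 1428777_at and 1423162_s_at it was 1.14-fold and 0.898-fold. On 1460116_s_at the 1 and 3 d values, 6.66 and 6.57, were near that second untreated array (6.64). The share of dimmer probe sets past 2-fold over all genes was not counted. On its brightest probe set *Etv4* was below its untreated array from 1 d to 6 d, 1.90-fold lower at 4 d, and 1.15-fold higher at 8 d. Set against the untreated array of the other set it was 1.31-fold lower at 4 d and 1.26-fold lower at 8 d, so the direction at 8 d turned. The dimmer *Etv4* probe set, 1443381_at, was 1.38-fold, 0.871-fold, 1.03-fold and 0.776-fold its untreated value at 1, 2, 3 and 4 d. At 6 and 8 d it was 1.10-fold and 0.992-fold.

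The third comparison asked what 6 d of Dox did in 2i+LIF, again with 1 array on each side. *Spry4* was 4.30-fold and *Etv4* 2.77-fold higher with Dox, and the other 8 genes differed by less than 2-fold. Of all genes 1.75% were at least 2-fold higher and 2.42% at least 2-fold lower, and 0 of the 10 were 2-fold lower. The median log2 change was 0.29 over the 10 genes and 0.02 over all genes.

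All 4 *Spry4* probe sets were higher with Dox in 2i+LIF, by 2.11, 0.77, 0.66 and 0.93 (log2), and both *Etv4* probe sets were, by 1.47 and 0.52. With Dox in 2i+LIF, *Etv4* was 1.33-fold, *Spry4* 3.00-fold and *Egr1* 12.7-fold below the mean of the untreated LIF+serum arrays on the brightest probe sets. On its dimmer probe set *Etv4* was 1.75-fold below that mean. *Egr1* and *Dusp6* had log2 changes of -0.23 each and *Spry2* of -0.56, and *Dusp4*, *Spred1*, *Etv5*, *Fos* and *Fgf4* were 0.23 to 0.33 higher. These single differences have no replicate check.

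**Figure D3:**
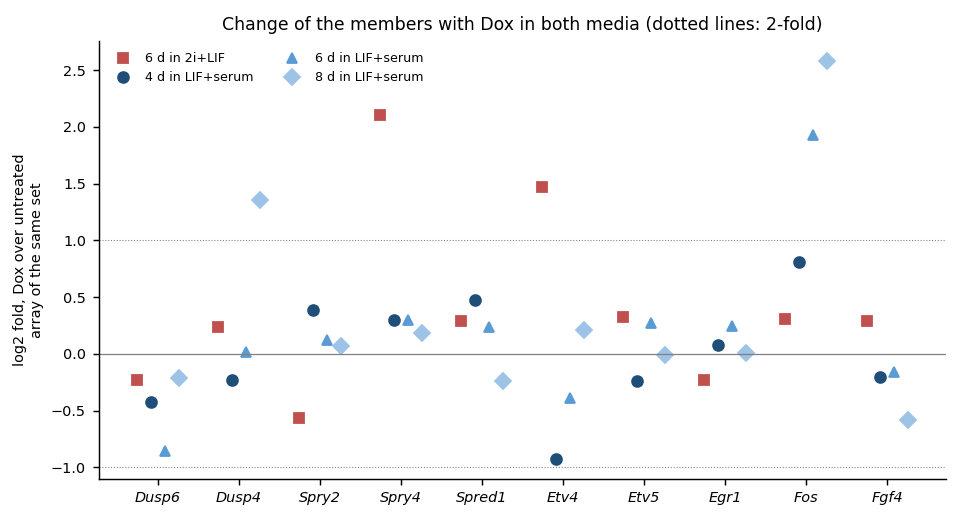
Log2 fold of the brightest probe set with Dox over the untreated array of the same set (vertical axis) for the 10 genes (horizontal axis), 1 array against 1 for each point, with squares for 6 d in 2i+LIF, circles, triangles and diamonds for 4, 6 and 8 d in LIF+serum, and dotted lines at 2-fold. *Spry4* (2.11) and *Etv4* (1.47) pass the upper line in 2i+LIF, *Fos* (1.93 and 2.58) at 6 and 8 d in LIF+serum and *Dusp4* (1.35) at 8 d.

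Whether the response to Dox differed between the media was tested as the change in 2i+LIF minus 6 times the daily slope in LIF+serum, a test chosen after seeing the data. Its error came from the LIF+serum arrays around their slope alone, because each 2i+LIF condition had 1 array. Of all probe sets 0% were called by limma and 4641 had an unadjusted p under 0.05, so 0 of the 10 genes passed. *Spry4* came to 1.87 (log2, standard error 0.43, unadjusted p = 0.00144, adjusted p = 0.172 from limma), *Etv4* to 1.77 (standard error 0.58, adjusted p = 0.321) and *Fos* to -1.56 (standard error 0.56, adjusted p = 0.369). Against the 6 d LIF+serum array alone the differences of *Spry4* and *Etv4* were 1.81 and 1.86. The dimmer *Spry4* probe sets came to 0.84, 1.27 and 1.50.

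**Figure D4:**
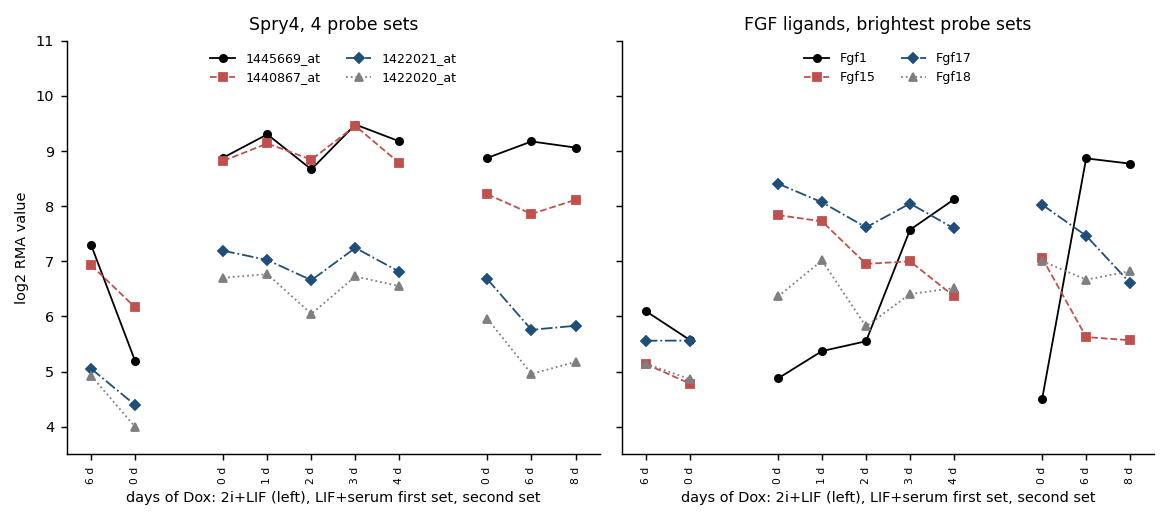
Log2 RMA values (vertical axes) of the 4 *Spry4* probe sets (left) and of the brightest probe sets of *Fgf1*, *Fgf15*, *Fgf17* and *Fgf18* (right) on the 10 arrays, 1 array per point, with days of Dox on the horizontal axes, 2i+LIF left of the first and the second LIF+serum set. All 4 *Spry4* lines are lowest in untreated 2i+LIF and higher with Dox there, and *Fgf1* climbs to 8.87 and 8.77 at 6 and 8 d in LIF+serum while *Fgf15* and *Fgf17* end at 5.57 and 6.60.

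Around these genes the pathway was followed in lists chosen by function. Over all genes 5.75% were called higher and 5.33% lower with days of Dox, and 0.121% and 0.0660% between the untreated media, so counts of 0 to 2 called genes in lists of this size are near the background. At an unadjusted p under 0.05 the counts over all 18193 genes were 2406 higher and 2698 lower with days of Dox, and 978 higher and 1143 lower between the media. Of 17 measured genes for FGF ligands, receptors and cofactors, 1 rose and 2 fell with days of Dox in LIF+serum, and 0 were called in 2i+LIF against LIF+serum (limma, where 3 were lower and 0 higher at p under 0.05 without adjustment). *Fgf1* read 4.88 untreated, 5.37, 5.55, 7.57 and 8.12 after 1 to 4 d, then 4.50 untreated, 8.87 and 8.77 after 6 and 8 d. All times from 1 d on were above both untreated arrays, and the slope was 0.64 per day (standard error 0.08, adjusted p = 0.00351 from limma). *Fgf15* and *Fgf17* fell, with slopes of -0.24 and -0.16 (adjusted p = 0.00762 and 0.0268). In untreated 2i+LIF *Fgf15* read 4.78, against 7.84 and 7.06 in untreated LIF+serum, and *Fgf17* read 5.56, against 8.41 and 8.03. They were 6.35-fold and 6.30-fold lower without passing the test (adjusted p = 0.127 and 0.0946), and *Fgf18* was 3.53-fold lower (adjusted p = 0.250).

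Of 16 measured genes of the cascade between receptor and ERK, *Sos2*, which loads RAS with GTP, rose with days of Dox (slope 0.31, adjusted p = 0.00832 from limma) and *Gab1*, a docking protein of receptor signalling, fell (slope -0.19, adjusted p = 0.00469). None of the 16 was called between the media (limma, with 1 higher and 1 lower where p was not adjusted and under 0.05). At 8 d *Sos2* stood 9.09-fold over the untreated array of the first set and 3.79-fold over its own. In untreated 2i+LIF *Sos2* stood 3.27-fold higher and *Eras*, one of the RAS genes in the list, 2.87-fold lower than in untreated LIF+serum, and neither passed the test.

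Among 15 further inhibitors of ERK or its receptors, 1 rose and 1 fell with days of Dox. *Errfi1*, which blocks the EGF receptor, was 4.99-fold the untreated value of its set at 8 d and 3.06-fold that of the first set (slope 0.26, adjusted p = 0.00883 from limma), and *Spry1* was 0.491-fold and 0.814-fold (slope -0.14, adjusted p = 0.0474). Between the media 0 were called (limma, with 0 higher and 3 lower where p was not adjusted and under 0.05), with *Dusp9*, *Pea15a* and *Dusp5* 4.36-fold, 3.17-fold and 2.31-fold lower in untreated 2i+LIF. *Pea15a* encodes a protein that keeps ERK out of the nucleus.

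Of 13 other ETS factors, *Etv3*, a repressor, rose (4.97-fold at 8 d over its own set's untreated array and 8.38-fold over that of the first set, slope 0.32, adjusted p = 0.00351 from limma) and *Elk1*, an ERK substrate that acts with serum response factor, fell (0.508-fold at 8 d, slope -0.13, adjusted p = 0.0298). *Elk3* and *Elf1* stood 3.80-fold and 2.37-fold higher in untreated 2i+LIF (adjusted p = 0.326 and 0.486), and 0 of the 13 were called (limma, with 1 higher and 1 lower where p was not adjusted and under 0.05).

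Of 26 further immediate early genes, 2 rose and 0 fell with days of Dox, and 5 and 4 did so at an unadjusted p under 0.05 (limma). *Atf3*, a stress-induced partner of AP-1 proteins, read 5.60 untreated and 5.39, 6.09, 6.53 and 6.78 after 1 to 4 d, then 5.69 untreated, 6.55 and 7.39 after 6 and 8 d (slope 0.23, adjusted p = 0.00932). The other riser was *Klf10*, an early target of TGFβ (slope 0.17, adjusted p = 0.0210). *Atf3* and *Jun*, the AP-1 partner of *Fos*, were 6.19-fold and 4.00-fold higher in untreated 2i+LIF than in untreated LIF+serum, where *Egr1* was lower, without passing the test (adjusted p = 0.0866 and 0.292). The median difference between the media over the 26 genes was 0.02, and 0 were called (limma, with 3 higher and 1 lower where p was not adjusted and under 0.05).

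Across the 10 arrays the genes did not follow 1 profile. Of the 45 pairs, 28 had a Pearson r above 0, with a median of 0.39, a lowest of -0.74 and a highest of 0.86 (*Spry4* with *Egr1*, and *Spry4* with *Spred1*). The points share cells, array sets and a gap between the media, so these values only describe the arrays. The 5 genes outside the group whose profiles were most like that of *Dusp6*, among 10736 probe sets that reached 8 on at least 1 array, were *Ndufaf2* (0.94), *Uxt* (0.94), *Cdc42ep4* (0.93), *Rbm34* (0.93) and *Ube2a* (0.93), over 10 arrays.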

How the data were processed

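Total RNA was hybridised to Affymetrix mouse genome arrays, 1 per sample. The authors deposited log2 values from RMA (affy in R, per the labels), and the sources do not say which arrays shared a normalization. Of 45101 probe sets 64 controls were left out. Symbols came from the platform annotation, in which 34945 probe sets have 1 symbol, 932 several and 9160 none listed. A gene was read from its probe set with the highest mean over the 10 arrays. Fits used limma 3.58.1 in R 4.3.3 with Benjamini-Hochberg adjustment over all 45037 probe sets and a threshold of 0.05. Day of Dox was fitted as a slope to the 8 LIF+serum arrays with the array set as a term (5 residual and 4.81 prior degrees of freedom), and untreated 2i+LIF minus untreated LIF+serum to 3 arrays (1 residual and 6.19 prior). Folds at single times are differences of log2 values with no test. The files give no detection calls, and the number of arrays limits the precision. The genes and lists were chosen with earlier results of these data known. Text named all 10 genes, and of each further list those passing a test and up to 4 with the largest slopes or differences. The fits were tested on simulated data with 100 changed probe sets of each size. The slope fit found 95 at 0.25 per day and 100 at 0.5, with 21 false calls. The fit between untreated media found 79 at a log2 difference of -2 and 100 at -4, with 54 false calls. The fit of Dox response between media found 2 at a log2 difference of 1 and 95 at 3, with 7 false calls. Alternatives changed the normalization, the array set term, the time scale, the filter on dim probe sets (reaching 6), the variance prior, the probe set per gene and the arrays entered. Tables were made with Python 3.11.15, pandas 2.3.3 and numpy 2.4.6.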

Additional observations from a re-analysis of the deposited data

Results flagged for a closer look

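*Spry2* moved in opposite directions with Dox in the 2 media on its brighter probe set. Its log2 change after 6 d of Dox was -0.56 in 2i+LIF, whereas all 6 Dox arrays in LIF+serum were above the untreated array of their set, by 0.07 to 0.55. The test of the difference gave -0.77 (standard error 0.33, unadjusted p = 0.0450, adjusted p = 0.471 from limma), so it did not pass. On the dimmer probe set the 2i+LIF change was -0.35 and all 6 LIF+serum changes were negative too, between -0.49 and -0.15. The 2i+LIF change rests on 1 array on each side, and the error of that test came from the LIF+serum arrays alone.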

How the results depend on the processing

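*Fos* was the only one of the 10 genes called in the slope over days, under every alternative except the first array set alone, where 0 of the 10 passed, and without the second untreated array, so that leaving out 1 array gave 0 to 1 of the 10 higher and 0 lower (limma). Over all probe sets leaving out 1 array gave 0 to 2739 higher and 0 to 2581 lower: both counts were 0 without the second untreated array (limma, 6139 at an unadjusted p under 0.05), 1120 and 820 without 4 d, 1416 and 1121 without 6 d, and 1244 lower without 3 d. The first set alone gave 991 lower and the second 1159. Between the untreated media the counts over all probe sets were 0 and 0 after quantile normalization (3667 at an unadjusted p under 0.05), after centring (4254) and with the filter at 6 (1906), 218 higher and 118 lower with trend and robust variances, and 2231 and 3259 with all 10 arrays. Of the 10 genes 0 were then lower in the first 3 cases, 2 with trend and robust variances and 6 with all 10 arrays. The median difference over all probe sets was -0.16 as deposited, -0.03 after quantile normalization and -0.01 after centring, and that of the 10 genes was -0.94 with each gene's probe sets averaged. For the difference in Dox response between media, trend and robust variances gave 9 higher and 16 lower, and leaving out 1 array 0 to 137 higher and 0 to 170 lower (12 and 33 without the first untreated array, 137 and 170 without 8 d, 0 and 1 without 6 d), with 0 of the 10 genes called throughout. Against the other untreated array *Dusp6* was 2.32-fold lower at 4 d and 1.49-fold the untreated value at 8 d, where its own sets gave 1.34-fold lower and 0.863-fold. Differences that did not pass the test also changed sign. On the log2 scale, averaging each gene's probe sets gave slopes per day of -0.0017 for *Spry2*, -0.043 for *Spry4* and -0.014 for *Spred1*, and 2i+LIF minus LIF+serum differences of -0.46 for *Spry2* and -0.14 for *Fgf4*. Quantile normalization gave differences of -0.10 for *Spry2* and -0.073 for *Fgf4*, and a slope of 0.014 for *Etv5*. Without the array set term the slopes were -0.042 for *Spred1* and 0.059 for *Etv5*, and the second set alone gave -0.014 for *Spred1*, 0.0048 for *Etv4* and 0.0095 for *Etv5*. Leaving out 1 array gave slopes of -0.014 to 0.057 for *Spred1* and -0.051 to 0.018 for *Etv5*, and Dox responses in 2i+LIF minus those in LIF+serum of -0.029 to 0.54 for *Dusp6*, -0.65 to 0.13 for *Dusp4* and -0.056 to 0.37 for *Spred1*. No paired analysis was possible because the groups compared share fewer than 2 replicate numbers, number 1 alone, which was given in accession order. The array set stood as a term in the slope fit in its place. The labels pair each 2i+LIF condition with 1 array, so the spread between 2i+LIF cultures was not measured.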
